A study of Oryza sativa Japonica Group with 24 samples.

Results

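The genes described here are those whose transcripts in rice anthers were most abundant at noon in long days and lower at every other sampling. They were chosen by their measured values. Read counts scaled to a common library total (CPM) were placed on a log2(CPM + 1) scale, the 2 replicates of each of 12 groups were averaged, and the 200 genes with the widest gap between the long-day 12:00 mean and the highest of the 11 other group means were kept, out of 55986 loci in the table and 40044 loci with at least 1 count. Because the long-day noon level chose these genes, that level and its gap are given as a description with no test. Tests are given only for contrasts between other groups. The model behind them was fitted on all libraries, so the long-day noon libraries still entered its filter, scaling and spread, and counts from a model without them stand beside the main ones.

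Anthers of wild-type japonica rice, variety 9522, were collected from plants in paddy fields at mitosis I, a stage recognised by anther length. Long-day (LD) plants had the natural photoperiod of about 14 h, and short-day (SD) plants had a day of 12 h, made by shading them with black cloth toward evening. Each photoperiod was sampled at 6 times of day spaced 4 h apart, the first at 08:00, with 2 biological samples per group and 24 libraries in all. The SD plants were therefore covered and the LD plants were not, and both sets were of the same variety and genotype.

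At mitosis I the haploid microspore divides to form a vegetative and a generative cell, while the tapetum, the innermost layer of the anther wall, breaks down after having fed the developing pollen with sugars, lipids and wall material. Many plant transcripts follow the time of day, through an internal clock and through direct responses to light and temperature, and noon is the sampling at which field plants meet strong light. In a whole anther the level of a transcript sums over all of its cells, so that fewer cells of a type and less RNA per cell cannot be told apart.

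The libraries held 18043740 to 27529649 counts. Replicate 2 of LD 12:00 stood apart for these genes. The 200 genes together took 2.47% of all counts in LD 12:00 replicate 1 and 8.31% in replicate 2, against 0.264 to 0.751% in the other 22 libraries. Of the genes named in the study as anther genes, OsABCG15, OsLAP6 and HTH1 were between 2.60 and 1012 CPM in the 12 SD libraries and between 0.0473 and 24.8 CPM in the 12 LD libraries, and for each of them no LD library reached the lowest SD library. The study picked these genes from the same libraries. SD and LD libraries did not overlap for 4 further markers either, with CSA at 80.1 to 134 CPM in SD and 18.4 to 74.0 CPM in LD, OsUgp1 at 584 to 853 and 283 to 555 CPM, CAP1 at 226 to 600 and 93.0 to 188 CPM, and OsSWN1 at 118 to 160 and 19.9 to 102 CPM. The study named these 4 as hub genes partly by their correlation with photoperiod in the same libraries. Their separation was therefore partly built in. OsCAB1R overlapped, at 5.48 to 794 CPM in SD and 2.37 to 502 CPM in LD. OsMATL, a phospholipase of pollen, was at 72.1 and 72.5 CPM in LD 12:00, 59.5 and 87.4 CPM in LD 08:00 and 0 to 56.0 CPM in the 20 other libraries. OsSWN1 was at 19.9 and 29.4 CPM in LD 12:00, 27.7 and 39.1 CPM in LD 08:00 and 57.9 to 160 CPM in the 20 others. These marker levels moved with photoperiod and with LD morning and noon, as did many results below, and their part in those results was not tested.

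**Figure D1:**
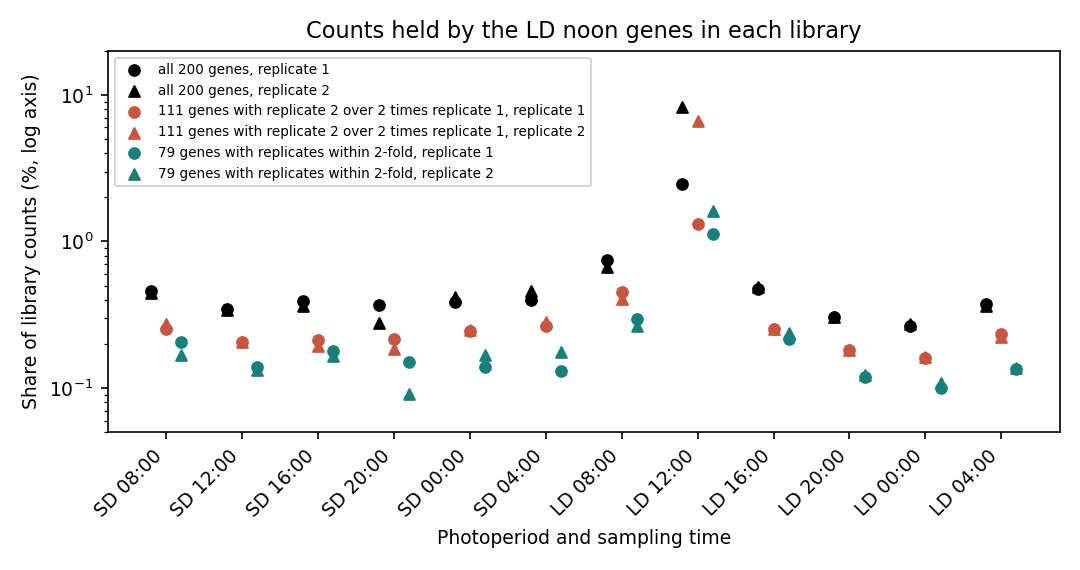
Share of each library's counts (log axis) held by the 200 LD noon genes and by their 2 larger sets, at each sampling. Circles are replicate 1 and triangles replicate 2. The 22 libraries outside LD 12:00 sit between 0.264 and 0.751%, whereas the LD 12:00 replicates are at 2.47 and 8.31%.

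The gap ranged from 1.38 to 6.03 on the log2(CPM + 1) scale, with a median of 2.06. The median LD 12:00 level was 35.8 CPM, with a range of 2.54 to 5705 CPM. The median level of the same genes in the 11 other groups was between 1.18 CPM at SD 04:00 and 2.91 CPM at LD 08:00. Of the 200 genes, 33 were under 1 CPM in all 22 other libraries, and 80 were at 1 CPM or more in all of them. The list therefore held both genes that were near the detection limit away from LD noon and genes that were expressed at every sampling. The next highest group was LD 08:00 for 73 genes, SD 12:00 for 35 and LD 04:00 for 32.

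The same ranking was applied to every other group. The list of SD 12:00 had a median gap of 1.28 and that of LD 08:00 a median of 0.83, and the 9 remaining lists had medians of 0.45 or less. The single widest gap of all, 6.29, belonged to the SD noon list. The replicates of the group that defined the list differed by more than 2-fold for 121 of the 200 LD noon genes but for 8 of the 200 SD noon genes. In the remaining lists this count ran from 5 at LD 04:00 to 74 at SD 00:00, with 50 at SD 08:00 and 44 at LD 00:00.

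**Figure D2:**
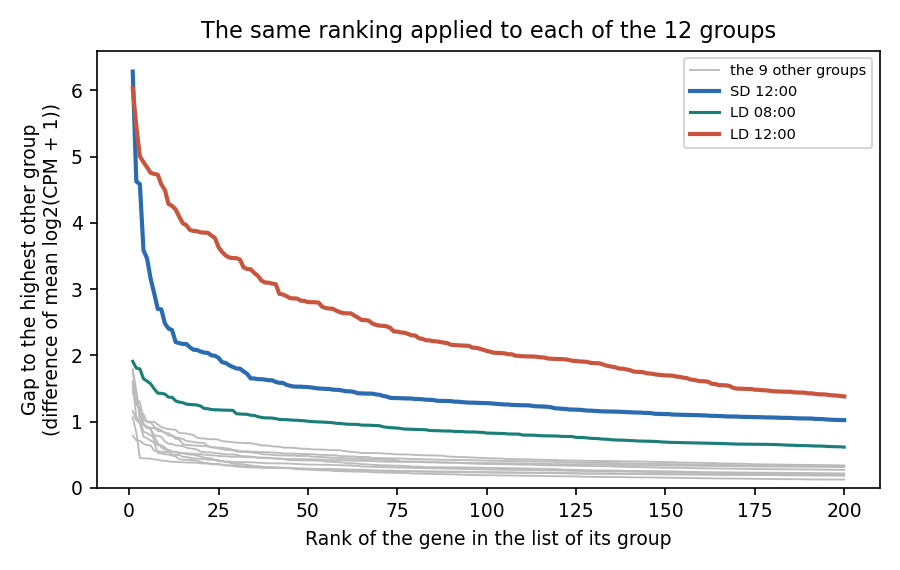
Gap between the defining group and the highest other group (difference of mean log2(CPM + 1)) against rank, for the same ranking applied to each of the 12 groups. The LD 12:00 line runs from 6.03 to 1.38 and lies above the SD 12:00 line from 6.29 to 1.02 at every rank after the first.

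The gap fell off smoothly at the end of the list. The 5 genes just inside were LOC_Os01g45250, LOC_Os10g22750, LOC_Os05g39250, LOC_Os12g28590 and LOC_Os05g41590, with gaps of 1.40 to 1.38, and the 5 just outside were LOC_Os08g09690, LOC_Os02g45420, LOC_Os04g57200, LOC_Os03g19920 and LOC_Os04g46970, with gaps of 1.38 to 1.37. Both LD 12:00 libraries were above all 22 other libraries in 189 of the 200 genes. In the other 11, replicate 1 was below the highest of the 22.

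The LD noon genes fell into sets by how the 2 LD 12:00 replicates compared, a division made after their values had been seen. In 111 genes replicate 2 was more than 2 times replicate 1 in CPM, in 79 the replicates were within 2-fold, and in 10 replicate 1 was more than 2 times replicate 2. These are called the replicate 2 set, the even set and the replicate 1 set. Of the 20065 other loci at 1 CPM or more in both libraries, 1.10% had a ratio above 2, and the median ratio was 0.910. In 36 LD noon genes the ratio exceeded 10. The LD 12:00 mean of such a gene is mainly the value of 1 library, and no 3rd library was present to place it.

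**Figure D3:**
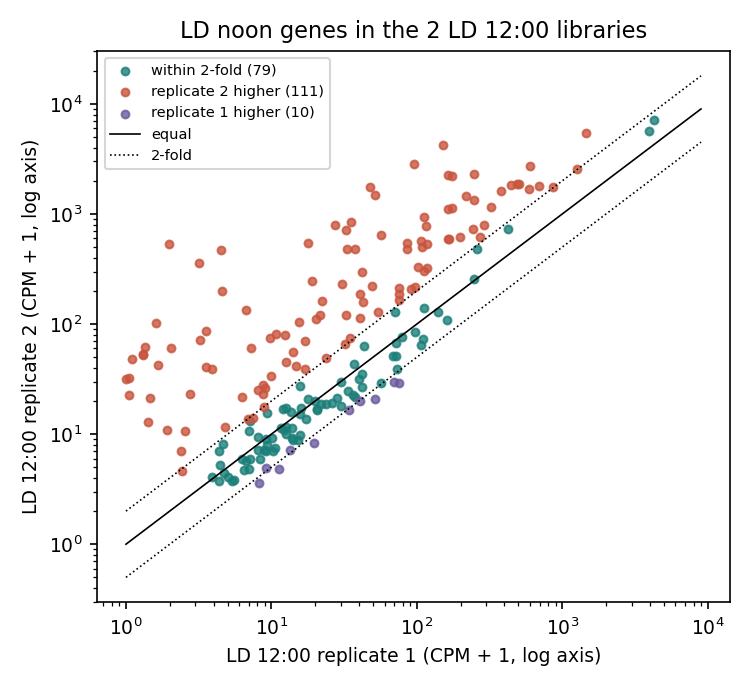
CPM + 1 of the 200 LD noon genes in LD 12:00 replicate 1 and replicate 2 (both log axes), coloured by set. The solid line marks equal values and the dotted lines 2-fold differences. The 111 genes of the replicate 2 set reach a ratio of 612, and the 79 even genes follow the solid line.

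All 10 genes with the widest gap were in the replicate 2 set. LOC_Os04g01740, which carries the term response to stress, had the widest gap, 6.03. It was at 94.4 CPM in LD 12:00 replicate 1 and at 2835 CPM in replicate 2. In the 22 other libraries its lowest, median and highest values were 0.254, 0.762 and 16.8 CPM, the last in LD 16:00 replicate 2. Both noon libraries thus exceeded every other library, and replicate 2 was 30.0 times replicate 1. LOC_Os11g31060, which carries the terms death and cell death, was at 105 and 564 CPM in the 2 LD 12:00 libraries and at 0.303, 0.807 and 4.64 CPM (lowest, median, highest) in the others. LOC_Os03g53340, annotated with transcription regulator activity, was at 219 and 1469 CPM at LD noon, at 20.2 and 15.7 CPM at LD 08:00, and at 0.0440 to 0.923 CPM in the remaining 20 libraries. LOC_Os03g53340 was therefore above the other samplings at LD 08:00 as well as at LD noon.

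The other 7 of the first 10 genes had no annotation in the sources used here. LOC_Os05g44340 was at 150 and 4238 CPM in LD 12:00 and at most 25.5 CPM elsewhere. LOC_Os04g36750 was at 2.16 and 358 CPM and at most 0.380 CPM elsewhere. LOC_Os03g14180 was at 31.5 and 717 CPM and at most 4.80 CPM elsewhere. In these 3 genes replicate 2 was 28.2, 166 and 22.7 times replicate 1. LOC_Os07g43740 (39.4 and 113 CPM, at most 1.61 CPM elsewhere) and LOC_Os02g52150 (381 and 1632 CPM, at most 39.1 CPM elsewhere) had closer replicates, with ratios of 2.87 and 4.28. The remaining pair, LOC_Os03g16020 and LOC_Os03g16030, are neighbours and are described with the runs of adjacent loci.

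The genes with the most counts at LD noon differed from those with the widest gap, and 3 genes were among the first 10 by both measures. CPM is not corrected for gene length, so this order is one of counts. LOC_Os08g39140 had 4258 and 7153 CPM in the LD 12:00 libraries, 1101 and 925 CPM at LD 08:00 and 179 to 576 CPM in the 20 others. LOC_Os03g16860 had 3951 and 5636 CPM at LD noon and 276, 623 and 1272 CPM (lowest, median, highest) in the other 22 libraries. Both were in the even set, and both were well expressed at all times. LOC_Os01g62290 (1460 and 5449 CPM at LD noon), LOC_Os03g57340 (1266 and 2581 CPM), LOC_Os03g15960 (600 and 2724 CPM), LOC_Os08g41390 (863 and 1752 CPM) and LOC_Os01g08560 (696 and 1787 CPM) were in the replicate 2 set, and LOC_Os05g44340, LOC_Os04g01740 and LOC_Os03g16020 completed the 10. Together the 10 held 46.1% of the counts of the LD noon genes in the LD 12:00 libraries.

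Within the even set the widest gaps were those of LOC_Os04g23550, at 25.1 and 18.3 CPM in LD 12:00 and at most 0.680 CPM elsewhere, and of LOC_Os06g03670, at 16.9 and 19.8 CPM and at most 0.437 CPM elsewhere. LOC_Os06g46950 was at 71.4 and 66.8 CPM and at most 7.25 CPM elsewhere. LOC_Os03g60080 was at 247 and 257 CPM and at most 32.4 CPM elsewhere. In these 4 genes the peak was of similar height in both anther samples. The even set had a lower median LD 12:00 level than the replicate 2 set (14.5 against 130 CPM) and a narrower median gap (1.92 against 2.36). Its next highest group was LD 04:00 in 25 genes and SD 12:00 in 22 of 79, whereas that of the replicate 2 set was LD 08:00 in 64 of 111.

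**Figure D4:**
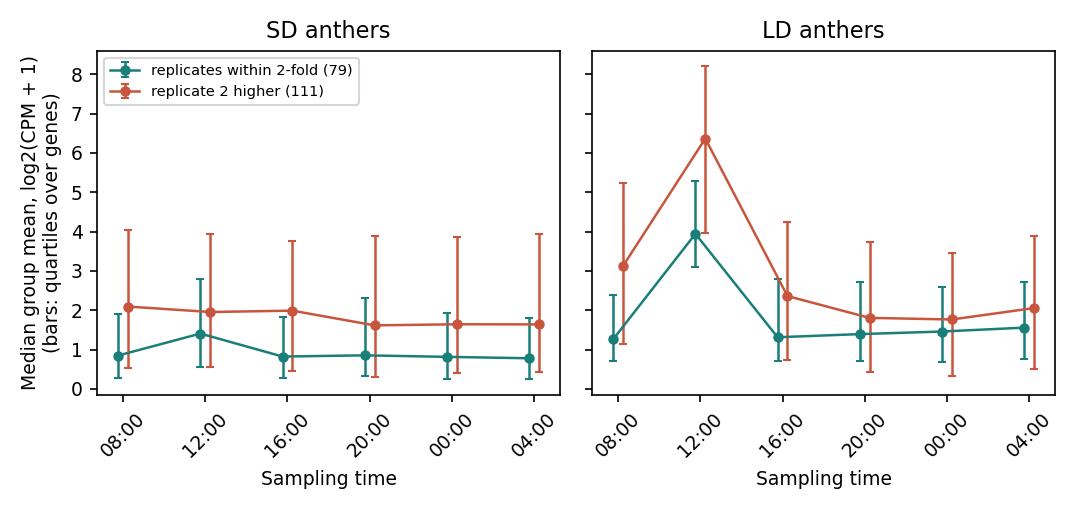
Median over genes of the group mean log2(CPM + 1) at each sampling in SD and LD anthers, for the even set (79 genes) and the replicate 2 set (111 genes). Bars span the quartiles over genes and are not an error over samples. The replicate 2 set has a median of 3.13 at LD 08:00 and 2.36 at LD 16:00, while the even set has its SD maximum, 1.41, at SD 12:00.

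Ranked on replicate 1 alone, 142 of the 200 genes stayed among the first 200, including 75 of the 79 even genes and 57 of the 111 replicate 2 genes. Ranked on replicate 2 alone, 163 stayed, with 49 of the even genes and all 111 of the replicate 2 genes. There were 105 genes in both single-replicate lists. With replicate 1 alone, 191 of the 200 genes still had LD noon as their highest group, and 150 had a gap above 1.

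Few of the genes carried a description. The supplementary sheets of the study annotated 9 of the 200 and gave a gene ontology (GO) term for 35, which left 158 with neither. The sheets give terms for genes that the study had called or grouped on these samples, and some were held here in shortened form, so more of the 200 may have a description. The reference gene table paired none of the locus identifiers with a name. LD noon genes made up 4 of 675 transport loci (0.593%), 3 of 422 carbohydrate loci (0.711%) and 2 of 231 lipid loci (0.866%) in the study's lists. None of the 51 loci the study listed as high in anther, or of its 12 clock loci, was among them. The LD noon genes were 200 of the 40044 loci with at least 1 count, so lists of 51 and 12 loci are too short to show a lack. The study chose the transport, carbohydrate, lipid and anther lists on these samples. In the sheets 19 loci were annotated as heat shock or chaperone proteins, and none of these was an LD noon gene. With 158 of the 200 genes undescribed, this cannot tell whether the list holds heat shock genes. The summed level of the 19 loci was 1010 and 1000 CPM in LD 12:00 and 547 to 881 CPM in the other 22 libraries.

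Among transport genes, LOC_Os04g48290 encodes a MATE efflux protein, of a family that moves small organic compounds out of the cytosol. It was at 11.6 and 10.6 CPM in LD 12:00 and at 0 to 1.06 CPM elsewhere. LOC_Os10g28240 encodes a plasma membrane calcium-transporting ATPase, which pumps calcium out of the cell, and was at 68.6 and 28.5 CPM at LD noon and 1.73 to 10.9 CPM elsewhere. LOC_Os01g67820 encodes an exo70 subunit of the exocyst, the complex that tethers secretory vesicles to the plasma membrane, and was at 19.7 and 15.5 CPM at LD noon and 0.238 to 3.90 CPM elsewhere. LOC_Os03g05750, with a heavy-metal-associated domain, was at 96.5 and 82.9 CPM at LD noon and 9.05 to 30.5 CPM elsewhere. In all 4 genes both LD noon libraries were above the 22 others.

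Among carbohydrate genes, LOC_Os09g20390 is OsTPP7, a trehalose-6-phosphate phosphatase, which removes the phosphate from a sugar signal of plants. OsTPP7 was at 73.8 and 27.9 CPM at LD noon and 0.630 to 6.63 CPM elsewhere. LOC_Os10g35070, an alpha-galactosidase precursor, was at 16.0 and 68.6 CPM at LD noon and 2.37 to 12.6 CPM elsewhere. LOC_Os05g41590, a glycerol-3-phosphate dehydrogenase and the last gene of the list, was at 19.0 and 18.9 CPM and at 2.21 to 7.03 CPM elsewhere. Of the lipid genes, LOC_Os02g11070 encodes a 3-ketoacyl-CoA synthase, an enzyme that lengthens very-long-chain fatty acids, and was at 22.9 and 17.8 CPM at LD noon and 0.872 to 2.65 CPM elsewhere. LOC_Os03g43880, a patatin-like phospholipase annotated PLA IIIA/PLP7, was at 8.16 and 8.07 CPM at LD noon and 0 to 2.73 CPM elsewhere. Of the 9 annotated genes, 6 were in the even set, 1 in the replicate 2 set and 2 in the replicate 1 set.

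Among the terms found, those of transcription were the most frequent, with 14 genes, 9 of them in the even set, 4 in the replicate 2 set and 1 in the replicate 1 set. The share of such terms over all loci with a term in the sheets was not counted, so no excess can be read from the 14. LOC_Os02g08440 was at 40.9 and 34.0 CPM at LD noon, LOC_Os09g28440 at 8.27 and 6.95 CPM, LOC_Os01g60600 at 36.4 and 20.6 CPM, LOC_Os09g35010 at 12.9 and 8.24 CPM and LOC_Os04g52090 at 159 and 108 CPM. LOC_Os01g60640, LOC_Os09g16510, LOC_Os02g32590 and LOC_Os05g27730 were the other even members, at 17.1 to 70.6 CPM. The 4 members of the replicate 2 set, LOC_Os03g53340, LOC_Os10g28340, LOC_Os08g43334 and LOC_Os03g06630, were more abundant, at 96.4 to 325 CPM in replicate 1 and 218 to 1469 CPM in replicate 2. LOC_Os08g36920, in the replicate 1 set, was at 12.3 and 6.14 CPM and at most 0.243 CPM elsewhere.

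All 3 genes with the term response to stress were in the replicate 2 set. LOC_Os03g57340 was at 221 to 497 CPM away from LD noon and LOC_Os09g29840 was at 50.8 to 114 CPM there and at 163 and 594 CPM at LD noon, so that they, unlike LOC_Os04g01740, were expressed throughout. Terms of protein modification, metabolism or binding marked LOC_Os06g06490, LOC_Os02g08490, LOC_Os06g30970, LOC_Os02g33680, LOC_Os06g09560 and LOC_Os03g56540. Terms of nucleic acid or chromatin binding, or of a ribonucleoprotein complex, marked LOC_Os06g39240, LOC_Os01g64360, LOC_Os04g34190 and LOC_Os03g49430. Single general terms marked LOC_Os03g13300 (amino acid metabolism), LOC_Os04g48350 (nitrogen compound metabolism), LOC_Os05g38560 (nucleus), LOC_Os02g04650 (enzyme regulator activity) and LOC_Os04g51160 (multicellular organismal process). Of these 15, 5 were in the even set and 10 in the replicate 2 set.

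Of the 200 genes, 194 passed the filter on low counts in the model of all 24 libraries, and 15 of those passed only because of the LD 12:00 libraries. A gene was called when its adjusted p in edgeR's quasi-likelihood test was under 0.05 and its absolute log2 fold change was at least 1. In 9 contrasts between other groups, 117 of the 194 genes were called at least once and 77 never. Of the 117, 8 were among the 15 genes that passed the filter through LD noon. In the model without LD noon, 129 of 179 genes were called at least once and 50 never. The share of all genes called at least once over the 9 contrasts was not counted, so no excess can be read from these counts. A replicate 2 gene has a wide spread in the model of all 24 libraries because of LD noon itself. The main counts are therefore also given for a model without the 2 LD 12:00 libraries, in which 179 of the genes passed the filter. Where a count stands alone, it is from the model of all 24 libraries.

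The first question was whether the LD noon genes differed between photoperiods at other times. At all 5 other samplings most of the called LD noon genes were higher in LD anthers. At 08:00, 58 of 194 were higher in LD anthers (29.9%, background 10.7% of 25498 genes) and 1 was higher in SD anthers (background 7.82%), and the median log2 fold change of SD against LD was -1.06, beside 0.00 for all genes. At 04:00, 54 were higher in LD anthers (27.8%, background 10.2%) and 0 in SD anthers (background 4.03%), with a median of -1.02. At 00:00, 32 were higher in LD (16.5%, background 6.21%) and 4 in SD (background 3.98%). At 16:00, 25 were higher in LD (12.9%, background 2.20%) and 1 in SD (background 3.62%). At 20:00, 19 were higher in LD (9.79%, background 5.13%) and 0 in SD (background 1.83%). Where 0 were higher in SD, DESeq2 called 1 at 04:00 and 2 at 20:00, and 82 and 50 LD noon genes had an unadjusted p under 0.05 in edgeR in either direction at these times.

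In the model without LD noon, 73 were higher in LD (background 10.5%) and 2 in SD (7.9%) at 08:00, and 27 in LD (1.83%) and 1 in SD (3.81%) at 16:00. The counts were 16 in LD (4.27%) and 3 in SD (1.81%) at 20:00, 32 in LD (5.56%) and 9 in SD (4.05%) at 00:00, and 60 in LD (10.2%) and 4 in SD (3.91%) at 04:00. In either direction the backgrounds of this model were 18.4, 5.64, 6.07, 9.61 and 14.1% of 25351 genes, in the order 08:00, 16:00, 20:00, 00:00 and 04:00. The SD and LD libraries also differed without overlap in 7 of the 9 markers (OsABCG15, OsLAP6, HTH1, CSA, OsUgp1, CAP1 and OsSWN1), as given above, and photoperiod and these markers cannot be told apart here. The study had picked these 7 by differences or correlations in the same libraries, so their number is not independent of photoperiod.

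These counts changed when single libraries were left out. Calls over all genes also fell in the refits below, except at 16:00 without LD replicate 1 and at 20:00 without SD replicate 1. The falls are therefore not particular to the LD noon genes. All 200 genes passed the filter in these refits. In the model of all libraries the backgrounds for calls in either direction were 18.6, 5.82, 6.97, 10.2 and 14.3% in the same order of samplings. At 08:00 the calls in both directions together fell from 59 to 32 without SD 08:00 replicate 2 and to 39 without LD 08:00 replicate 2. At 16:00 they fell from 26 to 2 without SD replicate 1, 10 without SD replicate 2, 13 without LD replicate 1 and 5 without LD replicate 2. At 20:00 they fell from 19 to 11 and 2 without SD replicates 1 and 2, and to 5 and 0 without LD replicates 1 and 2. At 00:00 they fell from 36 to 3 without SD replicate 1 and 11 without LD replicate 1. At 04:00 they fell from 54 to 26 without SD replicate 1 and 34 without either LD replicate. Where edgeR gave 0 calls at 20:00, 41 of the genes still had an unadjusted p under 0.05.

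The calls were also counted by set. At 04:00, 43 of 79 even genes and 8 of 105 replicate 2 genes were called higher in LD, and at 00:00, 28 and 2. At 16:00 the counts were 21 and 3, and at 20:00 they were 12 and 6. At 08:00 they were 21 of 79 and 36 of 105. Without the LD noon libraries the counts at 04:00 were 37 of 73 even genes and 20 of 98 replicate 2 genes, and at 08:00 20 and 52. They were 17 and 10 at 16:00, 10 and 5 at 20:00, and 26 and 4 at 00:00, so the sets were closer at 16:00 than in the main model. The difference between the sets was not tested, since they were formed after the values had been seen.

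Genes called higher in LD at 4 or all 5 of the samplings numbered 13, and 12 of them were even genes. The share of all genes called at 4 or 5 samplings was not counted, so no excess can be read from the 13. These calls are from the model of all 24 libraries, in which replicate 2 genes have a wide spread. LOC_Os06g46950 was called at all 5. It was at 0.709 to 2.53 CPM in the SD libraries and at 3.19 to 7.25 CPM in the 10 LD libraries outside noon, with no overlap, and its log2 fold change of SD against LD was -2.54 ± 0.39 (SE, adjusted p = 0.00307 in edgeR) at 16:00. LOC_Os03g60080 was at 7.33 to 21.7 CPM in SD and 15.4 to 32.4 CPM in LD outside noon, and its log2 fold change at 04:00 was -2.00 ± 0.24 (adjusted p = 0.000147 in edgeR). The group also held the transcription genes LOC_Os02g08440, LOC_Os09g35010, LOC_Os01g60640, LOC_Os09g16510 and LOC_Os05g27730. Of the 14 transcription genes, 8 were called higher in LD at 08:00 (background 10.7%), 7 at 16:00 (2.20%), 3 at 20:00 (5.13%), 5 at 00:00 (6.21%) and 8 at 04:00 (10.2%). LOC_Os08g36920 and LOC_Os09g28440 passed the filter only through LD noon, and of the other 12, in the model without LD noon, 8, 7, 3, 5 and 7 were called at the same samplings. The terms come from sheets of genes that the study had called or grouped on these same samples. Calls by photoperiod were therefore partly built in, and the shares of all genes are not a like comparison.

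The largest changes at single samplings were in genes that were low in SD anthers. At 08:00 LOC_Os03g53340 was at 20.2 and 15.7 CPM in LD and 0.120 and 0.704 CPM in SD (log2 fold change -5.67 ± 0.92, adjusted p = 0.000599 in edgeR). LOC_Os06g39240 was at 21.6 and 21.2 CPM in LD and 0.643 and 0.867 CPM in SD (-4.97 ± 0.69, adjusted p = 0.000287). LOC_Os03g43880, the patatin-like phospholipase, was at 1.17 and 2.00 CPM in LD and 0.0386 and 0.107 CPM in SD at 04:00 (-4.57 ± 0.88, adjusted p = 0.00200 in edgeR). At 16:00 it was at 2.73 and 0.473 CPM in LD and 0.0520 and 0 CPM in SD, and LOC_Os11g04830 was at 1.28 and 0.379 CPM in LD and 0.0520 and 0 CPM in SD.

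Several of the largest changes were against an SD group with 0 counts in both libraries, for which a fold can only be bounded, here against 3 counts over the group. LOC_Os04g48290, the MATE efflux gene, had 13 and 12 counts in LD at 00:00 and none in SD, so it was at least 9.27-fold higher in LD. LOC_Os04g23550 was at least 8.00-fold higher at 20:00, LOC_Os02g41510 at least 7.05-fold at 00:00 and LOC_Os06g44010 at least 4.74-fold at 08:00. All 4 were below 1 CPM in LD at the sampling concerned. LOC_Os02g52000, LOC_Os01g72360, LOC_Os08g28710 and LOC_Os04g51160 also had large fitted changes, but they entered the tests only through their LD noon counts and were not tested without them, so no change is given for them.

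A few genes went the other way. LOC_Os01g21120 was at 0.843 and 0.758 CPM in SD and 0.0494 and 0.154 CPM in LD at 08:00 (2.79 ± 0.87, adjusted p = 0.0226 in edgeR). LOC_Os01g50370 was at 0.884 and 1.23 CPM in SD and 0.220 and 0.284 CPM in LD at 16:00. At 00:00 LOC_Os04g48030 was at 3.10 and 4.45 CPM in SD and 1.33 and 0.807 CPM in LD, LOC_Os08g43334 at 5.62 and 7.82 CPM against 2.27 and 2.52 CPM, and LOC_Os02g04650 at 19.9 and 21.6 CPM against 7.15 and 8.33 CPM. The last 3 were replicate 2 genes with LD 08:00 as the next highest group, and they were called higher in LD at 08:00 and higher in SD at 00:00.

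The second question was whether the genes also rose at noon in SD anthers. At SD 12:00, 40 of 194 were higher than the mean of the 5 other SD samplings (20.6%, background 7.25%) and 5 were lower (2.58%, background 7.03%), with a median log2 fold change of 0.45 beside -0.02 for all genes. Without the LD noon libraries 40 of 179 were higher (background 7.44%) and 6 lower (6.89%). Calls in both directions fell from 45 to 27 without SD 12:00 replicate 1 and to 25 without SD 12:00 replicate 2. The summed share of the 200 genes was 0.348 and 0.341% of counts at SD 12:00, inside the range of all SD libraries (0.279 to 0.462%).

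Of the 40, 28 were even genes (of 79), 10 were replicate 2 genes (of 105) and 2 were replicate 1 genes (of 10). Without the LD noon libraries the counts were 24 (of 73), 14 (of 98) and 2 (of 8). LOC_Os01g72530 was at 4.45 and 3.10 CPM at SD 12:00 and 0.0772 to 0.535 CPM in the 10 other SD libraries (3.54 ± 0.42, adjusted p = 1.73e-05 in edgeR). LOC_Os08g15050 was at 3.74 and 5.08 CPM at SD noon, but its SD maximum was at 08:00, with 6.43 and 4.17 CPM. LOC_Os04g23550 was at 0.202 and 0.428 CPM at SD noon and 0 to 0.237 CPM in the other SD libraries, where the ranges overlapped. Among the annotated genes, OsTPP7 rose from 0.709 to 2.57 CPM in the other SD libraries to 4.65 and 6.63 CPM (1.95 ± 0.31, adjusted p = 0.000211 in edgeR). The exo70 gene LOC_Os01g67820 rose from 0.238 to 1.28 CPM to 3.90 and 3.15 CPM (2.57 ± 0.34, adjusted p = 4.49e-05 in edgeR), and the alpha-galactosidase gene LOC_Os10g35070 from 2.76 to 5.14 CPM to 12.5 and 10.4 CPM (1.51 ± 0.36, adjusted p = 0.00415 in edgeR).

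The 5 genes that were lower at SD noon were all in the replicate 2 set. LOC_Os01g04380 was at 0.557 and 0.374 CPM at SD 12:00 and at 6.90 to 25.3 CPM in the 10 other SD libraries (-4.93 ± 1.11, adjusted p = 0.00298 in edgeR). LOC_Os06g09560 was at 0.101 and 0 CPM against 0.763 to 2.32 CPM (-4.83 ± 0.85, adjusted p = 0.000510), and LOC_Os05g38560 was at 0.557 and 0.428 CPM against 0.545 to 3.65 CPM (-1.91 ± 0.65, adjusted p = 0.0325 in edgeR). These 3 genes had their lowest SD group mean at 12:00. The other 2 were LOC_Os04g48030 and LOC_Os02g04650.

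**Figure D5:**
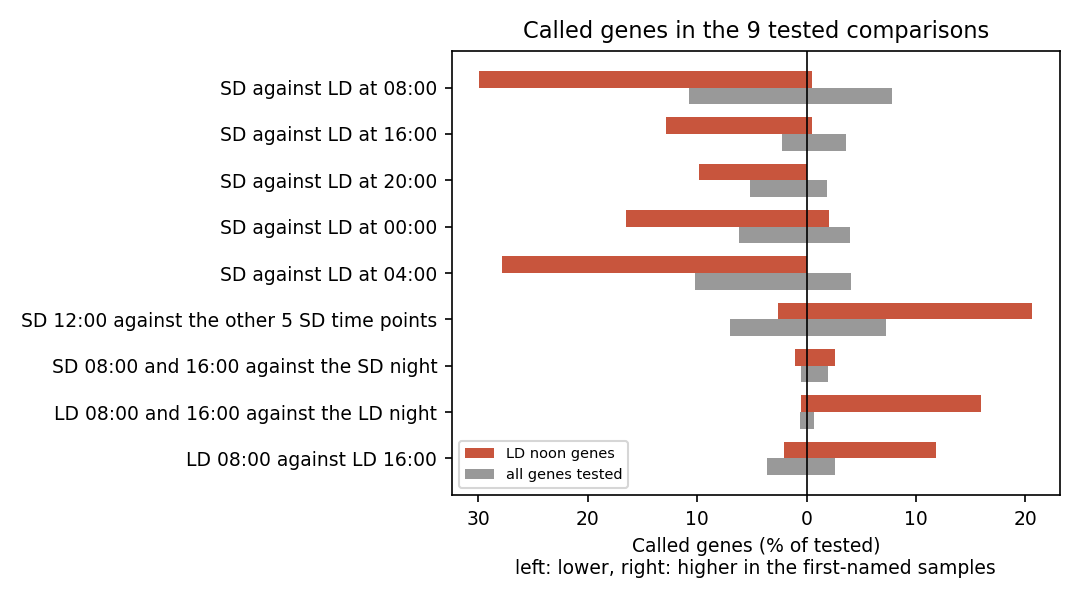
Share of the tested LD noon genes and of all 25498 tested genes called in each of 9 comparisons, lower in the first-named samples to the left and higher to the right. The LD noon genes exceed the background most to the left at 08:00 (29.9 against 10.7%) and 04:00 (27.8 against 10.2%), and to the right at SD noon (20.6 against 7.25%) and in LD 08:00 and 16:00 against the LD night (16.0 against 0.698%).

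The third question was whether the genes followed day and night away from noon. In LD anthers, 31 of 194 were higher over 08:00 and 16:00 than over 20:00, 00:00 and 04:00 (16.0%, background 0.698%) and 1 was lower (background 0.620%). In SD anthers, 5 were higher (2.58%, background 1.96%) and 2 lower (1.03%, background 0.533%). In either direction the backgrounds were 1.32% in LD and 2.50% in SD. Of the 31, 29 were replicate 2 genes and 2 were even genes, and 3 were also among the 5 of SD. Without the LD noon libraries 40 of 179 were higher in LD (background 0.722%) and 10 in SD (background 2.04%). The 40 of LD were 38 replicate 2 genes and 2 even genes. The SD calls in both directions, 7, became 4 without SD 08:00 replicate 1, 3 without SD 16:00 replicate 1, 13 without SD 00:00 replicate 2 and 12 without LD 12:00 replicate 2.

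The LD and SD day-night differences were also set against each other, an added comparison, in which 16 of 194 had the larger daytime excess in LD (8.25%, background 0.647%) and 1 in SD (background 1.91%), against a background of 2.56% in either direction.

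LOC_Os08g39140, with the highest LD noon CPM, was at 529 to 1101 CPM in the 4 LD libraries of 08:00 and 16:00 and at 179 to 338 CPM in the 6 of the night, and its log2 fold change was 1.68 ± 0.15 (adjusted p = 4.09e-06 in edgeR). LOC_Os03g16860 was at 1020.4 to 1272 CPM by LD day and 304 to 546 CPM by LD night (1.46 ± 0.23, adjusted p = 0.00151 in edgeR). LOC_Os03g49430 was at 6.37 and 8.02 CPM at LD 08:00, 0.705 and 0.521 CPM at LD 16:00 and 0.0450 to 0.190 CPM by night (4.41 ± 0.78, adjusted p = 0.00410 in edgeR). LOC_Os01g42190 had the opposite daytime course, with 0.346 and 0.206 CPM at LD 08:00, 20.6 and 17.9 CPM at LD 16:00 and at most 0.190 CPM by night (5.71 ± 1.19, adjusted p = 0.0136 in edgeR). LOC_Os08g15050 was higher by day in both photoperiods, with 9.14 and 8.74 CPM at LD 08:00 and 0 to 1.24 CPM in the LD night, and with 0 to 0.502 CPM in the SD night. LOC_Os02g42585 and LOC_Os08g01370 were the other genes with the largest SD daytime rise. The transcription gene LOC_Os02g08440 was lower by day in both, at 1.28 to 2.27 CPM against 3.37 to 5.13 CPM in LD (-1.23 ± 0.22, adjusted p = 0.00523 in edgeR), and LOC_Os09g16510 was lower by day in SD, at 0.361 to 1.59 CPM against 0.963 to 2.32 CPM.

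Before and after the LD noon peak the levels were unequal. At LD 08:00, 23 of 194 were higher than at LD 16:00 (11.9%, background 2.64%) and 4 were lower (2.06%, background 3.66%), and 22 of the 23 were replicate 2 genes. Of the 31 genes higher by LD day, 20 were among these 23. LD 08:00 is on the higher side of both contrasts, so some overlap was built in. Without the LD noon libraries 36 of 179 were higher at 08:00 (background 2.66%), and calls in both directions fell from 27 to 14 without LD 16:00 replicate 1. LOC_Os03g53340 was at 20.2 and 15.7 CPM at LD 08:00 and 0.617 and 0.568 CPM at LD 16:00 (5.01 ± 0.86, adjusted p = 0.00151 in edgeR), and LOC_Os06g39240 was at 21.6 and 21.2 CPM and then 1.89 and 2.04 CPM (3.56 ± 0.61, adjusted p = 0.00150). Lower at 08:00 were LOC_Os01g42190 (-5.98 ± 0.84, adjusted p = 0.000405 in edgeR), LOC_Os01g21120, with 0.0494 and 0.154 CPM against 1.14 and 0.379 CPM, and LOC_Os01g60600, with 1.43 and 0.514 CPM against 5.11 and 2.60 CPM. OsSWN1 and OsMATL, which set LD 08:00 apart from LD 16:00 as well, had the values given above.

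Some of the genes were next to each other in the order of locus identifiers. There were 10 runs with 24 genes and 14 adjacent pairs, whereas the same ranking for the 11 other groups gave 1 to 7 adjacent pairs. On chromosome 3, LOC_Os03g16020 (246 and 2328 CPM at LD noon), LOC_Os03g16030 (174 and 2227 CPM) and LOC_Os03g16040 (50.9 and 1475 CPM) formed a run in which replicate 2 exceeded replicate 1 by 9.48 to 29.0 times. On chromosome 1, LOC_Os01g04360 (3.49 and 470 CPM), LOC_Os01g04370 (0.976 and 535 CPM) and LOC_Os01g04380 (16.9 and 549 CPM) formed a run with ratios of 134.5, 548 and 32.4. In the second run replicate 1 was within the range of the 22 other libraries for LOC_Os01g04370 and LOC_Os01g04380, whose other values reached 2.08 and 25.3 CPM. The 1 run wholly of the even set was LOC_Os02g32580 and LOC_Os02g32590 on chromosome 2, which together had 58.4 and 74.4 CPM. How reads that match more than 1 locus were counted is not given in the sources used here, so values of adjacent loci with similar sequence are uncertain.

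By the chromosome in the locus identifier, 41 genes (20.5%) were on chromosome 3, which held 11.2% of the loci with a count. Chromosome 2 held 33 genes (16.5% against 10.6%), chromosome 1 held 31 (15.5% against 12.9%), and chromosome 7 held 5 (2.50% against 7.82%). These shares are a description of the list.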

How the data were processed

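Ion Proton RNA-seq libraries were made from total anther RNA. After low-quality reads had been removed, the authors aligned reads with MapSplice to the MSU assembly of Nipponbare and deposited raw read counts per locus; the counting tool and strand use are not given in the sources used here. Columns were matched to samples by title. No sequence or gene model was used here.

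From the counts, CPM by column total gave the ranking on log2(CPM + 1). Tests used edgeR 4.0.16 in R 4.3.3: TMM factors (0.823 to 1.10), filterByExpr over the 12 groups (25498 genes), glmQLFit on all 24 libraries without covariates, glmQLFTest for each contrast and Benjamini-Hochberg adjustment over all genes tested. SE is the absolute log2 fold change over the square root of F. The code was tested on simulated data. DESeq2 1.42.0 was an alternative, as were other scalings, filters, thresholds, sample sets and offsets, a replicate block, and libraries left out 1 at a time. For the ranking each of the 24 libraries was left out in turn. For a test only the libraries of its contrast and LD 12:00 replicate 2 were left out. The LD-SD difference of the day-night contrasts and the fits without LD 12:00 replicate 2 alone were added after the data had been seen. Replicate pairs correlated across genes at 0.948 to 0.990, and none was identical. With 2 samples per group, p-values rest on the spread pooled over groups.

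Genes named are the first 10 by gap and by LD 12:00 CPM, every annotated gene, ranks 196 to 205, and up to 3 called genes per direction and comparison with the largest fold change. Single genes from the even set, runs and sets were named after their values were seen. The members, lists and tests were chosen with earlier results of these data known.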

Additional observations from a re-analysis of the deposited data

Results flagged for a closer look

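One contrast differed between the photoperiods by a test of the difference itself. The difference of 08:00 and 16:00 from the night was set against its counterpart in the other photoperiod, LD minus SD, and 17 of 194 LD noon genes were called in edgeR (8.76%, background 2.56% of all genes), 16 with the larger daytime excess in LD (background 0.647%) and 1 with the larger in SD (background 1.91%). The count was 11 without SD 16:00 replicate 2, LD 08:00 replicate 2 or LD 16:00 replicate 2, each left out alone, 32 without LD 12:00 replicate 2 and 31 without both LD 12:00 libraries. Of the 17, 15 were in the replicate 2 set.

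LOC_Os04g28420 had a difference of 3.18 ± 0.50 on the log2 scale (SE, adjusted p = 0.00761 in edgeR), with 98.7 and 93.2 CPM at LD 08:00 and 1.72 to 17.5 CPM in the LD night, but 8.27 and 17.2 CPM at SD 08:00 and 2.94 to 11.1 CPM in the SD night. LOC_Os05g33700 had a difference of 3.15 ± 0.59 (adjusted p = 0.0124), with 10.4 and 9.05 CPM at LD 08:00 and 0.442 and 0.325 CPM at SD 08:00. LOC_Os07g43740 had a difference of 3.25 ± 0.91 (adjusted p = 0.0423 in edgeR), and did not exceed 1.61 CPM outside LD noon. LOC_Os01g28790, in the replicate 1 set, had a difference of -1.43 ± 0.41 (adjusted p = 0.0457), with 4.12 to 8.70 CPM by LD day and 5.53 to 9.92 CPM by LD night, but 1.08 to 4.16 CPM by SD day and 0.857 to 2.23 CPM by SD night.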

How the results depend on the processing

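Membership was kept by 155 to 184 of 200 genes under the other offsets and the rule on the lower replicate, and by 142 to 200 when 1 library was left out. Counts of called genes (59, 26, 19, 36 and 54 for SD against LD at 08:00, 16:00, 20:00, 00:00 and 04:00, 45 for SD noon, 7 and 32 for the SD and LD day-night contrasts, 27 for LD 08:00 against 16:00 and 17 for the LD-SD difference) stayed within 1.5 times under RLE factors, library totals and the replicate block; the other changes follow, and their cause was not tested. With no filter on low counts they were 49, 40, 58 and 82 at 16:00, 20:00, 00:00 and 04:00, 17 for the SD day-night contrast, 49 for LD 08:00 against 16:00 and 37 for the LD-SD difference. Over all 40044 genes of that fit, the higher and lower calls were 1374 and 1205, 812 and 2007, 1366 and 2109, and 1272 and 3124 at these samplings. For the other contrasts, in the same order, they were 643 and 212, 1484 and 1245, and 374 and 869. Fitted on only the libraries compared, the LD noon counts were 0 at 16:00 (54 genes had an unadjusted p under 0.05), 9 at 20:00, 5 at 00:00, 3 for the SD day-night contrast and 28 for the LD-SD difference. Over all genes these fits called 0 of 23466 at 16:00. Higher and lower calls were 288 and 884 of 23487 at 20:00, and 176 and 188 of 23375 at 00:00. They were 124 and 32 of 24123 for the SD day-night contrast, and 158 and 337 of 25071 for the LD-SD difference. Without the LD 12:00 libraries the LD noon counts were 12 for the SD day-night contrast, 41 for LD 08:00 against 16:00 and 31 for the LD-SD difference. DESeq2 gave 29 for the last, and 12 genes passed the SD day-night contrast without a fold threshold.

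Leaving out 1 library gave 32 to 75 calls at 08:00, 2 to 32 at 16:00, 0 to 21 at 20:00, 3 to 42 at 00:00, 26 to 66 at 04:00, 25 to 50 for SD noon, 3 to 13 and 26 to 41 for the SD and LD day-night contrasts, 14 to 40 for LD 08:00 against 16:00 and 11 to 32 for the LD-SD difference. A lone replicate was then assumed to vary like the other groups. Calls over all genes moved in these refits as well, so the changes are not particular to the LD noon genes. Of 45 named fold changes, none changed sign in 721 refits and 129 refits lost the call. The 45 had been chosen as the largest called changes, and the refits shared most of their libraries, so a kept sign was largely built in. Some of the 45 belong to genes that entered the tests only through LD noon. Replicate numbers did not mark a pairing shared by all groups. Correlations of replicate differences between groups ran from -0.54 to 0.69 over 66 pairs (median 0.03), with 22 pairs over 0.1, so some groups shared replicate differences. With the replicate block the calls were 58, 26, 19, 36, 53, 45, 7, 32, 26 and 18 in the order above. Library totals without TMM moved the median log2 fold change of all genes to 0.13, 0.18 and 0.17 at 08:00, 00:00 and 04:00, and the genes called higher and lower in SD from 1993 and 2737 to 2446 and 2363, from 1015 and 1583 to 1505 and 1359, and from 1028 and 2608 to 1626 and 2143; for the LD noon genes the calls were then 2 and 52, 8 and 29, and 4 and 48. With 2 samples per group and many genes under 1 CPM outside LD noon, small differences were not detectable.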
